A study of Mus musculus with 12 samples.

Results

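The genes described here are those of the mouse proteasome, taken as every gene symbol in the deposited table that starts with Psma, Psmb, Psmc, Psmd, Psme, Psmf or Psmg and is not marked as a pseudogene by "-ps". This gave 50 of the 46477 listed genes and left out 4 pseudogenes. RNA was sequenced from 12 cultures in 4 groups of 3, EpiLCs without MTCH2 (MTCH2-/-), their floxed controls (MTCH2 F/F), and ESCs of the same 2 genotypes. All were C57BL/6 mouse embryonic stem cells from E3.5 embryos that carried a floxed (F/F) MTCH2 allele. The MTCH2-/- cells were made from them by treatment with a recombinant cell-permeable Cre protein, whereas the labels call the untreated floxed cells wild type. Naïve ESCs were kept in 2i/L (LIF with inhibitors of MEK and GSK3), and epiblast-like cells (EpiLCs) were made by 2 days in Activin A and FGF2, which also takes away 2i/L. Because the control cells had no Cre, deletion and Cre exposure cannot be told apart. The lines were kept on irradiated fibroblast feeders before feeder-free plating, so fibroblast markers were also read.

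The proteasome is the protease that degrades proteins tagged with ubiquitin. Its barrel-shaped 20S core is built of stacked rings of alpha subunits (Psma genes), which gate the entrance, and beta subunits (Psmb genes), of which the products of Psmb5, Psmb6 and Psmb7 carry the chymotrypsin-like, caspase-like and trypsin-like sites. The 19S cap, with its ring of ATPases (Psmc genes) and its other base and lid subunits (Psmd genes), binds ubiquitin, removes it and threads the substrate into the core, and cap and core together form the 26S proteasome. Cells can swap the cap for activator rings (Psme genes), and immune or interferon-treated cells replace the catalytic beta subunits by those of the immunoproteasome (Psmb8, Psmb9 and Psmb10), which favours peptides for presentation by MHC class I. Assembly depends on dedicated chaperones (Psmg genes, Psmd5, Psmd9 and Psmd10).

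The libraries held 17453328 to 24068523 counts. Of the 50 genes, 48 passed the filter on low counts together with 17369 genes in all, and Psmb8 and the thymus-specific Psmb11 did not. Mtch2 itself averaged 1.88 ± 0.33 TMM-normalized CPM (library-size-scaled counts) in MTCH2-/- EpiLCs and 122 ± 0.57 CPM in MTCH2 F/F EpiLCs. The ESC levels were 1.86 ± 0.31 CPM in MTCH2-/- ESCs, against 177 ± 5.4 CPM in MTCH2 F/F ESCs (mean ± SD, n = 3 libraries, as for all means given here). The EpiLC marker list (Fgf5, Otx2, Pou3f1, Dnmt3b and Lef1) summed to 414 to 535 CPM in MTCH2-/- EpiLCs, 1883 to 2370 CPM in MTCH2 F/F EpiLCs, and 56.0 to 75.0 CPM in MTCH2-/- ESCs, against 64.5 to 75.3 CPM in MTCH2 F/F ESCs. Of 10 fibroblast markers, Lum, Twist2 and Col6a3 stayed under 1 CPM in every library, and the list summed to 26.2 to 37.4 CPM in MTCH2-/- EpiLCs, 29.0 to 31.9 CPM in MTCH2 F/F EpiLCs, and 29.8 to 47.2 CPM in MTCH2-/- ESCs, against 26.5 to 37.3 CPM in MTCH2 F/F ESCs. Of 8 immune markers, Ptprc, Csf1r, Lyz2, H2-Aa and H2-Ab1 stayed under 1 CPM in every library. The immune list summed to 40.9 to 42.8 CPM in MTCH2-/- EpiLCs and 11.2 to 15.3 CPM in MTCH2 F/F EpiLCs. For ESCs its sum was 61.2 to 66.8 CPM in MTCH2-/- ESCs, against 40.5 to 53.5 CPM in MTCH2 F/F ESCs.

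Promoter stretches of 6 of the genes are shown as examples. The genes were picked by hand from the core, the cap, the activators, the chaperones and the immunoproteasome, with Psmc3ip, and a stretch before their start site is free of annotated exons. The stretches come from RefSeq (GRCm38.p6), run 5′ to 3′ in the direction of the gene, and reach up to 200 bases before the start site. Those of Psmb10, Psme2 and Psmc3ip end 53, 13 and 2 bases before it, because the bases nearer to it lie in annotated exons. Capitals mark matches on either strand to 6 motifs that were searched: TGACNNNGC (core of the antioxidant response element), CCAAT, the core of the interferon-stimulated response element, GAAA repeated after a gap of 2 free bases, CCGGAAG (ETS site), GGGCGG (GC box) and TTCNNNGAA (core of the gamma-activated site).
Psmb6 (caspase-like core subunit), chr11:70525157-70525356, plus strand: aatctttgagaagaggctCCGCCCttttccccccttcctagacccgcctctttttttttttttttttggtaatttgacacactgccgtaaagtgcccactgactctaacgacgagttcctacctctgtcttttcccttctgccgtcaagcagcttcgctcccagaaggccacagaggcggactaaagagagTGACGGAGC
Psmd2 (scaffold of the cap base), chr16:20651452-20651651, plus strand: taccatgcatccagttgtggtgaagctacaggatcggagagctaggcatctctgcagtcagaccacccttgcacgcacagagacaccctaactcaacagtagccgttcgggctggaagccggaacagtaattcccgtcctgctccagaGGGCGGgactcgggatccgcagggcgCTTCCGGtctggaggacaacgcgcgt
Psme2 (activator ring), chr14:55591114-55591301, minus strand: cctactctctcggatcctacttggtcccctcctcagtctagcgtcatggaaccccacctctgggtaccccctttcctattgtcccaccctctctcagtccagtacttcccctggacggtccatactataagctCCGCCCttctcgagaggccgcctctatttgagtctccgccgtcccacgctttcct
Psmg1 (alpha-ring chaperone), chr16:95990961-95991160, minus strand: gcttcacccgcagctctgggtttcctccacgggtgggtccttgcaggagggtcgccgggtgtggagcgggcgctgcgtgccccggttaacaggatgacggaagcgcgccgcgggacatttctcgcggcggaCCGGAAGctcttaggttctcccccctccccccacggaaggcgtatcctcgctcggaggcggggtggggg
Psmb10 (immunoproteasome), chr8:105938445-105938592, minus strand: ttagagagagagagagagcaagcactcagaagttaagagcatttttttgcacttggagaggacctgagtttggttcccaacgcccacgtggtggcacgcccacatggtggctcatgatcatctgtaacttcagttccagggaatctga
Psmc3ip (recombination factor), chr11:101095437-101095635, minus strand: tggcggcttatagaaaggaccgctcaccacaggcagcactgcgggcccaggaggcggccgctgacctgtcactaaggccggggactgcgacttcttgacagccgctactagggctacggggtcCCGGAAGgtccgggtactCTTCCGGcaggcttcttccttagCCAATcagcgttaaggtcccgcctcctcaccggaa

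Over the 250 bases before the start site, the ETS site was present in 13 of the 42 proteasome genes with a RefSeq promoter (31.0%), in 14.3% of tested genes and in 7.83% of all promoters, and its carriers were 8 cap genes (Psmc1, Psmc2, Psmc6, Psmd2, Psmd4, Psmd6, Psmd11 and Psmd12) with Psma6, Psme3, Psme4, Psmg1 and Psmc3ip. The antioxidant response core, a site for factors that include the proteasome activator encoded by Nfe2l1, was present in Psmb5, Psmb6, Psmc6, Psmd9 and Psmd12, or 11.9% of the promoters against 14% of tested genes and 11.5% of all. The interferon-stimulated core stood in Psmb3, Psmd4 and Psmd9 (7.14% against 2.93% of tested genes and 3.46% of all), the gamma-activated core in Psmb8 and Psmg1 (4.76% against 6.94% and 8.13%), the CCAAT box in 35.7% (40.3% and 37.5%) and the GC box in 52.4% (62.4% and 35.4%). A match is a description of the letters in the window and no evidence that a factor binds.

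To ask whether proteasome genes differed with the genotype, MTCH2-/- cells were compared with MTCH2 F/F cells in each medium. In EpiLCs 40 of the 48 genes fell (adjusted p under 0.05 in the quasi-likelihood test of edgeR, adjusted by Benjamini-Hochberg over all genes tested), against 30.2% of all genes, and none rose, against 32.3% of all genes. All 48 log2 fold changes were negative, with a median of -0.36 (0.02 over all genes), though those of Psmc3 and Psmg4, which passed no test, turned positive without composition scaling and under some other alternatives. The count of genes that rose was also 0 at an unadjusted p under 0.05 and with DESeq2. In ESCs 25 of the 48 fell, against 20.4% of all genes, and only Psmb9 rose, against 23.3%, with a median of -0.23 (0.01 over all genes). These falls were small, since at a minimum of 2-fold just Psmb10 and Psmc3ip were lower in MTCH2-/- EpiLCs (7.03% of all genes) and none in MTCH2-/- ESCs (1.92%). By that measure none rose in MTCH2-/- EpiLCs (14% of all genes).

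Summed over the 50 genes, MTCH2-/- EpiLCs gave 0.546%, 0.615% and 0.584% of their counts to the proteasome, against 0.725%, 0.719% and 0.681% in MTCH2 F/F EpiLCs, and MTCH2-/- ESCs gave 0.541%, 0.598% and 0.580%, against 0.652%, 0.647% and 0.619% in MTCH2 F/F ESCs. No library of MTCH2-/- cells reached the lowest of the floxed cells in its medium. In these bulk samples fewer cells that express a gene and less RNA per cell cannot be told apart. The share of counts from mitochondrially encoded genes moved with the same groups, being 0.521% to 0.534% in MTCH2-/- EpiLCs and 1.41% to 1.46% in MTCH2 F/F EpiLCs, and 0.539% to 0.601% in MTCH2-/- ESCs and 1.98% to 2.11% in MTCH2 F/F ESCs; its part in the result was not tested. Among fibroblast markers 6 of 8 tested rose in MTCH2-/- ESCs (Col1a1, Col1a2, Col3a1, Postn, Dcn and Thy1), against 23.3% of all genes. In MTCH2-/- EpiLCs 4 of these markers rose and 2 fell, against 32.3% and 30.2% of all genes. Col1a1 (1.17), Col1a2 (0.73), Col3a1 (1.66) and Pdgfrb (2.87) rose there, and Dcn (-1.30) and Thy1 (-0.98) fell. Thy1 averaged 10.9 CPM in MTCH2-/- and 21.6 CPM in MTCH2 F/F EpiLCs, so the sums of the list mix changes in opposite directions. The fibroblast markers were at the low summed levels given above, and their part was likewise not tested. Of the 3 immune markers tested, Cd68 (1.88) and Cd3e (1.57) rose and Cd79a (-1.57) fell in MTCH2-/- EpiLCs, and Cd68 rose (0.61) and Cd3e fell (-0.51) in MTCH2-/- ESCs, and their part was not tested.

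The size of the fall differed between replicate numbers. With libraries compared number by number, the median difference of the 48 genes between MTCH2-/- and MTCH2 F/F EpiLCs was -0.51, -0.29 and -0.33 on the log2 scale for numbers 1, 2 and 3, and between ESCs it was -0.35, -0.16 and -0.15. Number 1 thus had the largest difference in both media, and without its 4 libraries 35 genes were lower in MTCH2-/- EpiLCs and 18 in MTCH2-/- ESCs. The shares over all genes in that fit are not given here, so these counts are not read against all genes. A test of just the 8233 genes whose mean reached 20 CPM, chosen after seeing the data, kept 42 of them, of which 34 were lower in MTCH2-/- EpiLCs (34.8% of all genes) and 19 in MTCH2-/- ESCs (24%). In that test the ATPase gene Psmc6 was higher in MTCH2-/- ESCs (0.13, adjusted p = 0.0446, against 27.5% of all genes).

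**Figure D1:**
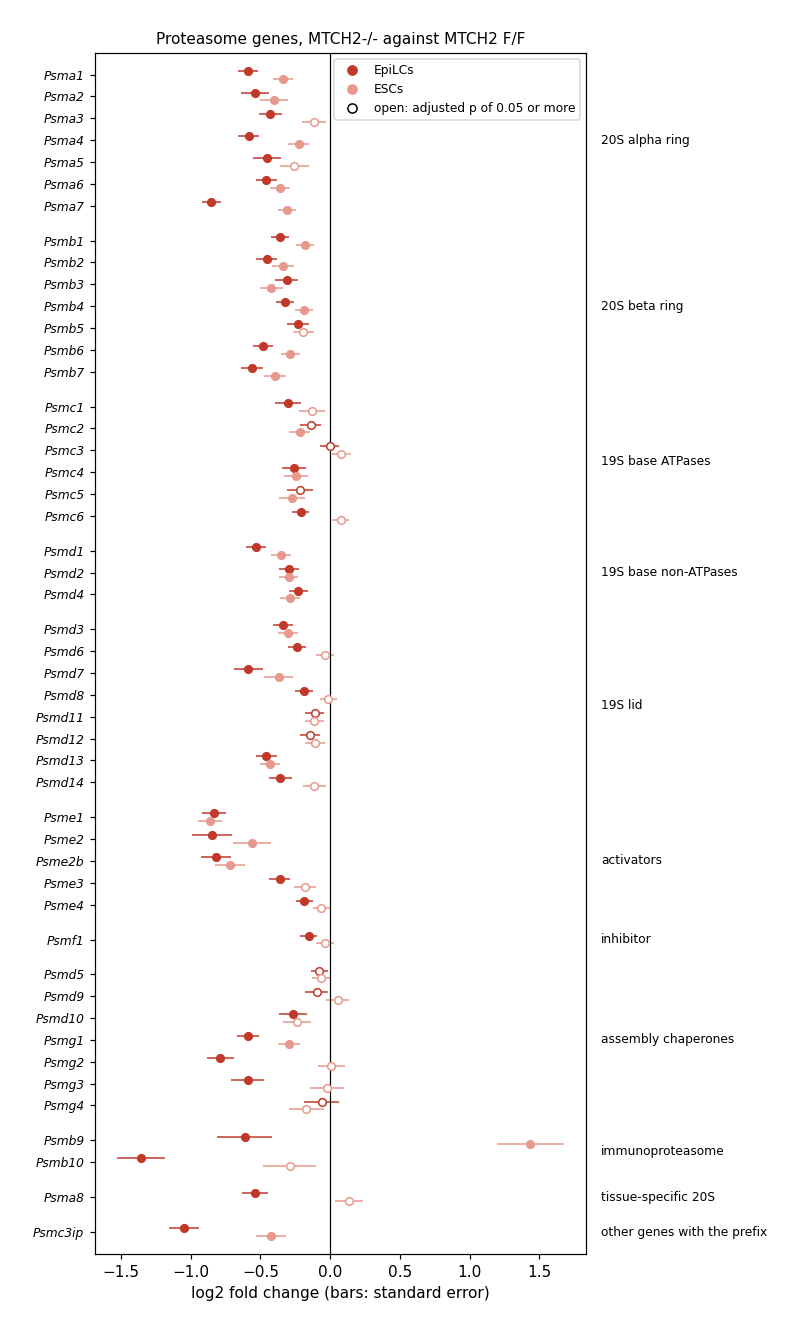
Log2 fold change (x axis; bars, standard error) of the 48 tested genes in MTCH2-/- against MTCH2 F/F cells, in EpiLCs (dark) and ESCs (light), grouped by role; filled points passed an adjusted p of 0.05. With TMM scaling all EpiLC points lie left of 0, and among ESC points Psmb9 alone is filled to the right of 0, at 1.44.

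In EpiLCs the whole constitutive 20S core fell. All 14 constitutive core genes were lower in MTCH2-/- EpiLCs, against 30.2% of all genes. They changed by -0.23 (Psmb5) to -0.85 (Psma7) on the log2 scale, with a median of -0.46. In MTCH2-/- ESCs 11 of the 14 were lower, against 20.4% of all genes, with a median of -0.30. The 3 that missed the threshold in ESCs were Psma3 (-0.12, adjusted p = 0.276), Psma5 (-0.26, adjusted p = 0.0538) and the chymotrypsin-like Psmb5 (-0.19, adjusted p = 0.0561). The summed core level was 1448 ± 129 CPM in MTCH2-/- EpiLCs and 2045 ± 62.4 CPM in MTCH2 F/F EpiLCs. Among ESCs there were 1499 ± 100.1 CPM in MTCH2-/- ESCs, against 1839 ± 52.7 CPM in MTCH2 F/F ESCs. The alpha ring, with a median of -0.54 in EpiLCs and -0.31 in ESCs, and the beta ring, with -0.36 and -0.29, were both lower. Some of these calls were lost in fits with 1 library left out. In ESCs those of Psma4 (-0.24 to -0.19, adjusted p 0.051 to 0.0904) and Psmb1 (-0.20 to -0.14, adjusted p 0.066 to 0.14) were lost when the first or second MTCH2 F/F or the first or the third MTCH2-/- ESC library was left out. That of Psmb4 (-0.21 to -0.15, adjusted p 0.0514 to 0.101) was lost when the second or the third MTCH2 F/F or the first or the third MTCH2-/- ESC library was left out. In EpiLCs that of Psmb5 (-0.20 to -0.17, adjusted p 0.0682 to 0.0886) was lost without the first or the third MTCH2-/- or the second MTCH2 F/F library.

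The largest core difference was that of Psma7, an alpha-ring subunit. Its levels were 137, 156 and 143 CPM in MTCH2-/- EpiLCs and 270, 270 and 246 CPM in MTCH2 F/F EpiLCs. For ESCs the values were 146, 160 and 157 CPM in MTCH2-/- ESCs, against 202, 185 and 187 CPM in MTCH2 F/F ESCs. The groups did not overlap in either medium, and the MTCH2-/- EpiLCs sat near the level of the MTCH2-/- ESCs while the MTCH2 F/F EpiLCs stood above every other library. The fold change was -0.85 in EpiLCs (SE 0.07, adjusted p = 3.54e-08) and -0.31 in ESCs (SE 0.07, adjusted p = 0.00141). The next largest in EpiLCs were Psma1 (-0.59), Psma4 (-0.58), the trypsin-like subunit Psmb7 (-0.56) and Psma2 (-0.54). Counts of Psma5, Psmb3 and Psmb5 are less certain than those of the other core genes, because 46.8% to 48.4% of their 60-base stretches also occur in transcripts of other genes. That share was 26.5% for Psmb7, with Nek6 as the main partner, 21.6% for Psma3 and 18.8% for Psma4. Of the exon length of Psmb7, 11.8% is shared with Nek6 on the other strand.

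Of the 17 genes of the 19S cap, 12 were lower in MTCH2-/- EpiLCs (median -0.24), against 30.2% of all genes. In MTCH2-/- ESCs 9 were lower (median -0.22), against 20.4% of all genes. No cap gene rose, against 32.3% of all genes in EpiLCs and 23.3% in ESCs. The summed level of the cap was 3077 ± 279 CPM in MTCH2-/- EpiLCs and 3730 ± 137 CPM in MTCH2 F/F EpiLCs. Its ESC levels were 3147 ± 222 CPM in MTCH2-/- ESCs, against 3602 ± 92.0 CPM in MTCH2 F/F ESCs. The scaffold gene Psmd1 fell by 0.53 in EpiLCs and 0.35 in ESCs, with 224, 266 and 255 CPM in MTCH2-/- EpiLCs, 361, 369 and 347 CPM in MTCH2 F/F EpiLCs, and 217, 255 and 233 CPM in MTCH2-/- ESCs, against 309, 301 and 289 CPM in MTCH2 F/F ESCs. The other base subunits outside the ATPase ring, Psmd2 (-0.29 and -0.30) and the ubiquitin receptor Psmd4 (-0.23 and -0.29), fell in both media too, the call of Psmd4 in EpiLCs being lost without the first MTCH2-/- EpiLC library (-0.15, adjusted p = 0.0613). In the lid, Psmd7 (-0.59 and -0.37), Psmd13 (-0.46 and -0.43) and Psmd3 (-0.34 and -0.30) fell in both media, the ESC call of Psmd7 being lost without the 4 libraries numbered 1 (-0.30, adjusted p = 0.144), whereas the deubiquitinase gene Psmd14 fell in EpiLCs (-0.36) and gave -0.11 in ESCs (adjusted p = 0.293). Some cap counts are less certain, since 20.3% of the 60-base stretches of Psmd2 also occur in transcripts of other genes. That share was 13.65% for Psmd11, 11.75% for Psmc1 and 10.9% for Psmd13. Of the exon length of Psmd13, 10.1% is shared with Sirt3 on the other strand.

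Of the 6 ATPase genes 3 fell in each medium, against 30.2% of all genes in EpiLCs and 20.4% in ESCs. Psmc3 averaged 244 ± 19 CPM in MTCH2-/- EpiLCs and 244 ± 14 CPM in MTCH2 F/F EpiLCs. ESC libraries gave 272 ± 16 CPM in MTCH2-/- ESCs, against 257 ± 5.3 CPM in MTCH2 F/F ESCs, and the gene passed in neither medium (adjusted p = 0.961 in EpiLCs and 0.37 in ESCs). In EpiLCs Psmc1 (-0.30), Psmc4 (-0.26) and Psmc6 (-0.21) fell, and in ESCs Psmc2 (-0.22), Psmc4 (-0.24) and Psmc5 (-0.27) fell, so that Psmc4 alone passed in both. Most ATPase calls were lost in some fits with 1 library left out. In EpiLCs Psmc1 (-0.19, adjusted p = 0.0571) lost its call without the first MTCH2-/- library and Psmc4 without that one (-0.17, adjusted p = 0.0896) or the second MTCH2 F/F library (-0.23, adjusted p = 0.0733). In ESCs Psmc2 lost its call without the first MTCH2-/- or the first or second MTCH2 F/F library (-0.24 to -0.16, adjusted p 0.0512 to 0.118), Psmc4 without those 3 or the third MTCH2-/- library (-0.27 to -0.17, adjusted p 0.0578 to 0.149), and Psmc5 without the first or the third MTCH2-/- or the second MTCH2 F/F library (-0.27 to -0.20, adjusted p 0.0701 to 0.115).

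**Figure D2:**
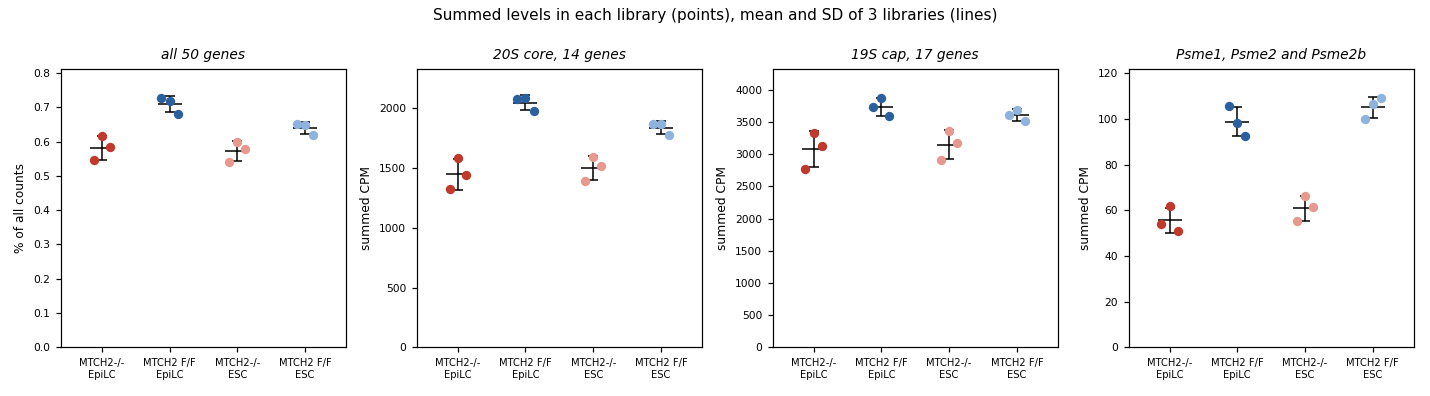
Summed level in each library (points; y axis in % of all counts for the first panel and in CPM for the others), with mean and SD of 3 libraries, for all 50 genes, the 14 constitutive core genes, the 17 cap genes and the 3 genes Psme1, Psme2 and Psme2b. In every panel the MTCH2-/- libraries lie below the MTCH2 F/F libraries of the same medium, and the 3 activator genes average 55.7 CPM in MTCH2-/- and 98.9 CPM in MTCH2 F/F EpiLCs.

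The activators Psme1 and Psme2, which form the interferon-inducible ring that opens the core without ubiquitin, fell in both media. Psme1 had 29.1, 35.8 and 29.8 CPM in MTCH2-/- EpiLCs and 59.1, 56.3 and 53.3 CPM in MTCH2 F/F EpiLCs. In ESCs it had 31.8, 37.0 and 33.8 CPM in MTCH2-/- ESCs, against 59.2, 62.8 and 64.5 CPM in MTCH2 F/F ESCs. Every MTCH2-/- library was thus well under every floxed library, whatever the medium. The fold changes were -0.83 in EpiLCs (SE 0.09, adjusted p = 7e-07) and -0.86 in ESCs (SE 0.09, adjusted p = 1.71e-06), and the difference between them was 0.03 (adjusted p = 0.881).

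Psme2 lies on chromosome 14 (GRCm38, chr14:55587441-55591113, minus strand) near Psme1 (chr14:55578123-55581529, plus strand), and Psme2b is a near-identical copy on chromosome 11 (chr11:48945354-48946190). Because 51.2% of the 60-base stretches of Psme2 and 64.8% of those of Psme2b occur in other transcripts, each being the main partner of the other, reads cannot be assigned firmly between them and their sum is the safer value. The sum was 25.0, 26 and 21.4 CPM in MTCH2-/- EpiLCs and 46.6, 42.1 and 39.4 CPM in MTCH2 F/F EpiLCs. The ESC levels were 23.5, 29.3 and 27.8 CPM in MTCH2-/- ESCs, against 41.0, 43.6 and 44.6 CPM in MTCH2 F/F ESCs, with no overlap in either medium. Taken singly, Psme2 had 5.17, 4.88 and 4.01 CPM in MTCH2-/- EpiLCs, 8.63, 9.02 and 7.62 CPM in MTCH2 F/F EpiLCs, and 6.2, 6.51 and 6.59 CPM in MTCH2-/- ESCs, against 8.04, 10.4 and 10.1 CPM in MTCH2 F/F ESCs (fold changes -0.85 in EpiLCs and -0.56 in ESCs). Psme2b had 19.9, 21.1 and 17.4 CPM in MTCH2-/- EpiLCs, 37.9, 33.1 and 31.8 CPM in MTCH2 F/F EpiLCs, and 17.3, 22.8 and 21.2 CPM in MTCH2-/- ESCs, against 32.9, 33.2 and 34.5 CPM in MTCH2 F/F ESCs (-0.82 and -0.72). All 4 of these fold changes passed the test.

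The other activators passed in EpiLCs alone. Psme3, which forms a ring of its own in the nucleus, had 202, 243 and 236 CPM in MTCH2-/- EpiLCs and 294, 298 and 283 CPM in MTCH2 F/F EpiLCs (-0.36, adjusted p = 0.000676), and 168, 200 and 198 CPM in MTCH2-/- ESCs, against 212, 218 and 211 CPM in MTCH2 F/F ESCs (-0.18, adjusted p = 0.0673). Psme4, a large single-chain activator with a role in spermatogenesis, had 528, 520 and 526 CPM in MTCH2-/- EpiLCs and 598, 586 and 605 CPM in MTCH2 F/F EpiLCs (-0.18, adjusted p = 0.0121), and 448, 448 and 464 CPM in MTCH2-/- ESCs, against 515, 450 and 455 CPM in MTCH2 F/F ESCs (-0.06, adjusted p = 0.407). The groups of both genes were apart in EpiLCs, and in ESCs those of Psme3 were apart and those of Psme4 overlapped. Without composition scaling the EpiLC call of Psme4 was lost (-0.12, adjusted p = 0.0842). Psmf1, which encodes a proteasome inhibitor in vitro, gave -0.15 in EpiLCs (adjusted p = 0.0426) and -0.04 in ESCs (adjusted p = 0.659). That EpiLC call was lost in 6 of the 12 fits with 1 library left out (-0.16 to -0.13, adjusted p 0.0503 to 0.124), among them those without any 1 of the MTCH2-/- EpiLC libraries.

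Of the 7 assembly chaperone genes, Psmg1, Psmg2, Psmg3 and Psmd10 were lower in MTCH2-/- EpiLCs, against 30.2% of all genes. In ESCs just Psmg1 was lower (-0.59 in EpiLCs and -0.30 in ESCs). That is 14.3% of the 7 genes, against 20.4% of all genes. Psmg2, the partner of Psmg1 in building the alpha ring, had 27.5, 27.1 and 24.1 CPM in MTCH2-/- EpiLCs and 46.9, 47.8 and 41.2 CPM in MTCH2 F/F EpiLCs. Among ESCs there were 23.6, 24.1 and 20.8 CPM in MTCH2-/- ESCs, against 25.3, 22.5 and 20.5 CPM in MTCH2 F/F ESCs. The MTCH2 F/F EpiLCs stood apart and the other 9 libraries lay together, with a fold change of -0.79 in EpiLCs (SE 0.10, adjusted p = 3.41e-06) and 0.01 in ESCs (SE 0.10, adjusted p = 0.96), the ESC value turning to -0.01 with relative log expression scaling. Psmd5 and Psmd9, which help to build the cap base, and Psmg4 passed in neither medium (-0.10 to -0.06 in EpiLCs and -0.17 to 0.05 in ESCs). The EpiLC call of Psmd10 (-0.27) was lost without the second or the third MTCH2-/- or the first MTCH2 F/F library (-0.27 to -0.19, adjusted p 0.0567 to 0.15). Counts of Psmg3 are less certain, because 20.9% of its 60-base stretches also occur in transcripts of other genes, with Gm26938 as the main partner.

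Of the immunoproteasome genes, Psmb8 was all but silent, at 0.446, 0.367 and 0.0965 CPM in MTCH2-/- EpiLCs, 0.491, 0.194 and 0 CPM in MTCH2 F/F EpiLCs, and 0.243, 0.140 and 0.375 CPM in MTCH2-/- ESCs, against 0.149, 0.0488 and 0.0495 CPM in MTCH2 F/F ESCs, and it was not tested. Psmb10, the inducible stand-in for Psmb7, had 8.24, 8.55 and 5.65 CPM in MTCH2-/- EpiLCs and 22.4, 18.5 and 16.5 CPM in MTCH2 F/F EpiLCs. For ESCs the values were 3.69, 5.54 and 4.61 CPM in MTCH2-/- ESCs, against 5.76, 5.95 and 5.15 CPM in MTCH2 F/F ESCs. The EpiLC groups were far apart and the ESC groups overlapped, with a fold change of -1.36 in EpiLCs (SE 0.17, adjusted p = 4.85e-06) and -0.29 in ESCs (SE 0.19, adjusted p = 0.228). As a share of its constitutive counterpart Psmb7, on the CPM scale without correction for length, Psmb10 stood at 6.61% ± 1.5 in MTCH2-/- EpiLCs and 11.4% ± 1.3 in MTCH2 F/F EpiLCs, and at 3.99% ± 0.44 in MTCH2-/- ESCs and 3.72% ± 0.26 in MTCH2 F/F ESCs.

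Psmb9, which replaces Psmb6, went in opposite directions in the 2 media. It had 1.87, 1.63 and 2.36 CPM in MTCH2-/- EpiLCs and 2.89, 3.05 and 3.05 CPM in MTCH2 F/F EpiLCs. Its ESC levels were 1.70, 1.54 and 1.87 CPM in MTCH2-/- ESCs, against 0.744, 0.537 and 0.594 CPM in MTCH2 F/F ESCs. The MTCH2-/- libraries of both media lay between the low floxed ESCs and the high floxed EpiLCs. The fold change was -0.61 in EpiLCs (SE 0.19, adjusted p = 0.0119), which was lost without the second MTCH2-/- EpiLC library (-0.50, adjusted p = 0.0528), and 1.44 in ESCs (SE 0.24, adjusted p = 0.000195), where 9.06% of all genes rose at least 2-fold. The level is low, at 11 to 15 counts in each MTCH2 F/F ESC library.

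The start site of Psmb9 lies back to back with that of Tap1, a subunit of the transporter that carries peptides to MHC class I, 226 bases away on the opposite strand (chromosome 17, RefSeq, GRCm38.p6). The exons of the genes overlap over 5.8% of the Psmb9 length in the GENCODE vM21 annotation, and the library kit does not mark the strand, so reads there cannot be told apart. Tap1 had 48.6, 35.2 and 45.6 CPM in MTCH2-/- EpiLCs and 20.3, 19.8 and 18.7 CPM in MTCH2 F/F EpiLCs. ESC libraries gave 48, 32.6 and 39.9 CPM in MTCH2-/- ESCs, against 4.81, 3.37 and 5.40 CPM in MTCH2 F/F ESCs. Unlike Psmb9 it rose in both media, by 1.14 in EpiLCs (adjusted p = 2e-05) and 3.15 in ESCs (adjusted p = 2.44e-08).

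Psma8, the testis-specific counterpart of Psma7, was expressed in all groups. It had 23.8, 27.4 and 22.2 CPM in MTCH2-/- EpiLCs and 33.9, 33.6 and 39.3 CPM in MTCH2 F/F EpiLCs. In ESCs it had 17.7, 16.7 and 16.3 CPM in MTCH2-/- ESCs, against 16.5, 15.3 and 14.5 CPM in MTCH2 F/F ESCs, so that only the EpiLC groups were apart (-0.54, adjusted p = 0.000151, in EpiLCs and 0.14, adjusted p = 0.289, in ESCs). Its level relative to Psma7, on the CPM scale, was 16.8% ± 1.1 in MTCH2-/- EpiLCs and 13.7% ± 2.0 in MTCH2 F/F EpiLCs, and 11% ± 1.0 in MTCH2-/- ESCs and 8.04% ± 0.27 in MTCH2 F/F ESCs. Psmc3ip shares the prefix but encodes a factor of meiotic recombination. It had 14.2, 18.9 and 15.5 CPM in MTCH2-/- EpiLCs and 34.8, 33.8 and 31.8 CPM in MTCH2 F/F EpiLCs. The ESC levels were 14.3, 17.7 and 15.1 CPM in MTCH2-/- ESCs, against 21.2, 21.4 and 20.5 CPM in MTCH2 F/F ESCs. It was lower in both media (-1.05, adjusted p = 5.76e-07, in EpiLCs and -0.42, adjusted p = 0.00512, in ESCs) without overlap, though 21.2% of its exon length is shared with the neighbouring Mlx on the other strand.

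**Figure D3:**
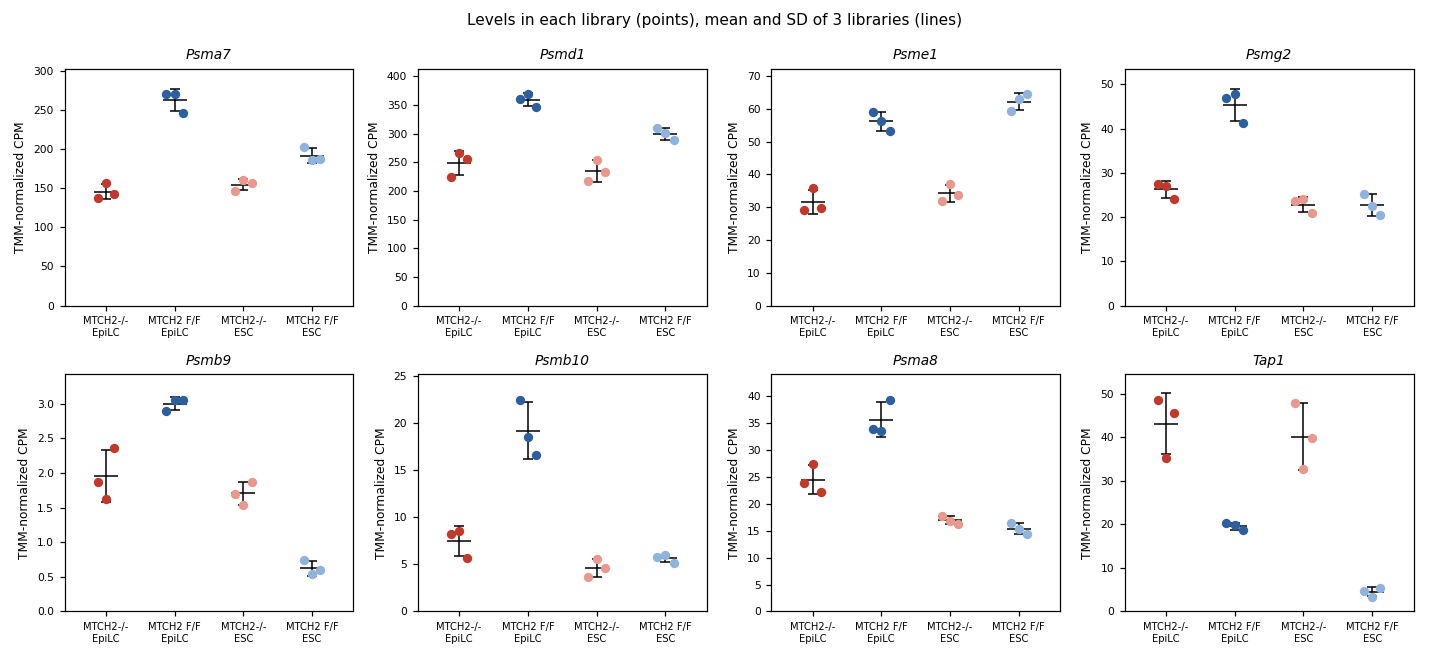
Level in CPM (y axis) of Psma7, Psmd1, Psme1, Psmg2, Psmb9, Psmb10, Psma8 and Tap1 in each library (points), with mean and SD of 3 libraries (lines), by group. Psme1 splits by genotype in both media, while for Psmg2, Psmb10 and Psma8 the MTCH2 F/F EpiLCs stand above all other libraries.

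The EpiLC and ESC comparisons share no library, but they are not independent, since same-numbered libraries deviated together across the media (r 0.309 to 0.471 in MTCH2-/- and 0.107 to 0.206 in MTCH2 F/F cells). Lower in both were 23 proteasome genes, which is 57.5% of the 40 that fell in EpiLCs and 92.0% of the 25 that fell in ESCs. Over all genes these shares were 41.6% and 61.4%. Such shares depend on how many genes fell. Of the proteasome genes 83.3% fell in EpiLCs and 52.1% in ESCs, against 30.2% and 20.4% of all genes. No closer agreement among proteasome genes is read from the shares. The exceptions in ESCs were the ATPase genes Psmc2 and Psmc5, which gave -0.14 (adjusted p = 0.119) and -0.22 (adjusted p = 0.0506) in EpiLCs. Without overlap, the MTCH2-/- libraries were the lower ones for 42 of the 48 genes in EpiLCs (32.6% of all genes) and for 30 in ESCs (26.7%). They were the higher ones for none in EpiLCs (34.4% of all genes) and for Psmb9 alone in ESCs (28%). An exact two-sided permutation test of 3 libraries against 3 cannot go below p = 0.1.

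To ask how proteasome genes responded to priming, EpiLCs were compared with ESCs in each genotype. In MTCH2-/- cells 7 of the 48 genes rose, against 20% of all genes, and Psmd8 and Psme2 fell, against 22.2%, with a median of -0.02 (-0.02 over all genes). In MTCH2 F/F cells 22 rose, against 31.9% of all genes, and Psmd8 and Psmb3 fell, against 32.1%, with a median of 0.15 (-0.01 over all genes). EpiLC and ESC libraries did not overlap for 7 genes above and 4 below in MTCH2-/- cells (22.7% and 25.5% of all genes) and for 25 above and 6 below in MTCH2 F/F cells (35.5% and 36% of all genes). The naïve marker list was Pou5f1, Nanog, Zfp42, Esrrb, Klf4, Tbx3, Prdm14 and Tfcp2l1. It summed to 2772 to 2979 CPM in MTCH2-/- EpiLCs and 4805 to 5524 CPM in MTCH2-/- ESCs. In MTCH2 F/F cells it summed to 1332 to 1559 CPM in EpiLCs and 6033 to 6486 CPM in ESCs. Most of the MTCH2 F/F EpiLC sum was Pou5f1, which the paper describes as staying high during the interconversion. Pou5f1 averaged 741 ± 82 CPM in MTCH2-/- and 991 ± 31 CPM in MTCH2 F/F EpiLCs. ESC means were 813 ± 102 CPM and 1011 ± 15 CPM. The part of the list in the difference was not tested.

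By at least 2-fold, primed MTCH2 F/F cells raised Psmb9 (2.25, SE 0.23, adjusted p = 2.96e-07), Psmb10 (1.77, SE 0.17, adjusted p = 2.18e-07) and Psma8 (1.21, SE 0.10, adjusted p = 2.29e-08), where 13.2% of all genes did, and their libraries, given above, did not overlap. None fell that far in MTCH2 F/F cells (14.2% of all genes), and in MTCH2-/- cells none rose (5.97%) or fell (5.99%) that far. Of the constitutive core, Psma3, Psma4, Psma5, Psma7, Psmb2 and Psmb6 rose in MTCH2 F/F cells, by 0.23 to 0.49. Of the cap, Psmc1, Psmc6, Psmd1, Psmd6, Psmd7, Psmd11 and Psmd14 did, by 0.19 to 0.41. The calls of Psma3, Psmb2, Psmc6, Psmd7 and Psmd14 in this comparison were each lost when some single MTCH2 F/F library was left out (0.17 to 0.27, adjusted p 0.0533 to 0.16).

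In MTCH2-/- cells the constitutive genes that rose were Psma5, Psmc1 and the lid gene Psmd11 (0.29). Psma5 had 21.5, 25.9 and 24.0 CPM in MTCH2-/- EpiLCs and 17.7, 20.3 and 20.2 CPM in MTCH2-/- ESCs, and 34.4, 33.1 and 30.1 CPM in MTCH2 F/F EpiLCs and 25.9, 22.7 and 20.9 CPM in MTCH2 F/F ESCs. EpiLCs of both genotypes lay above their ESCs. Its MTCH2-/- call (0.30, adjusted p = 0.0288) was lost without the first MTCH2-/- ESC library (0.23, adjusted p = 0.115) or without the second (0.23, adjusted p = 0.117) or the third (0.29, adjusted p = 0.0691) MTCH2-/- EpiLC library. That of Psmc1 (0.24, adjusted p = 0.0457) was lost in 9 of the 12 fits with 1 library left out (0.15 to 0.28, adjusted p 0.0505 to 0.226). The activators Psme3 (0.27 in MTCH2-/- and 0.45 in MTCH2 F/F cells) and Psme4 (0.21 and 0.33) rose in both genotypes, the MTCH2-/- call of Psme3 being lost without the first MTCH2-/- ESC library (0.19, adjusted p = 0.0503).

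The lid gene Psmd8 fell in both genotypes. It had 135, 153 and 140 CPM in MTCH2-/- EpiLCs and 203, 230 and 220 CPM in MTCH2-/- ESCs, and 157, 164 and 165 CPM in MTCH2 F/F EpiLCs and 209, 227 and 221 CPM in MTCH2 F/F ESCs. EpiLCs of both genotypes were below all ESCs, with fold changes of -0.61 in MTCH2-/- cells (SE 0.06, adjusted p = 1.78e-06) and -0.44 in MTCH2 F/F cells (SE 0.06, adjusted p = 2.07e-05). Between genotypes it gave -0.19 in EpiLCs (adjusted p = 0.0197), a call that was lost without the first or the third MTCH2-/- or the second or the third MTCH2 F/F library (-0.19 to -0.15, adjusted p 0.0505 to 0.0817). Psmb3 had 41.0, 51.4 and 45.6 CPM in MTCH2-/- EpiLCs and 45.7, 52.1 and 48.4 CPM in MTCH2-/- ESCs, and 56.6, 57.4 and 57.2 CPM in MTCH2 F/F EpiLCs and 68.0, 68.1 and 59.9 CPM in MTCH2 F/F ESCs. Its EpiLC and ESC libraries overlapped in MTCH2-/- cells (-0.08, adjusted p = 0.454) and did not in MTCH2 F/F cells (-0.19, adjusted p = 0.0497), a call that 7 of the 12 fits with 1 library left out did not keep (-0.20 to -0.16, adjusted p 0.06 to 0.166). In MTCH2-/- cells the fall of Psme2 (-0.46, adjusted p = 0.0182) was lost without the third MTCH2-/- EpiLC library (-0.35, adjusted p = 0.0888).

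The response to priming differed between the genotypes for 9 of the 48 genes (18.8%). Each had a lower EpiLC over ESC fold change in MTCH2-/- than in MTCH2 F/F cells. In that direction 17.2% of all genes differed, so the count is near the share over all genes. No proteasome gene differed in the other direction, against 17.8% of all genes, nor did any at an unadjusted p under 0.05 or with DESeq2. Psmb9 (-2.05), Psmb10 (-1.07), Psmg2 (-0.80), Psma8 (-0.68), Psmc3ip (-0.63), Psmg3 (-0.57), Psma7 (-0.54), Psma4 (-0.36) and Psmc6 (-0.29) made up the 9. At a minimum of 2-fold Psmb9 and Psmb10 remained, against 6.86% of all genes, and none in the other direction, against 7.54%. With the replicate number as a block, which pairs the libraries, the count was 15, with Psma1, Psma3, Psmd6, Psmd7, Psmd8 and Psmg1 added (adjusted p 0.02 to 0.0466). In the same fit Psmb1 and Psmc3 joined the genes that fell on priming of MTCH2-/- cells, which made 4. No share over all genes is given for that fit, so neither count is read against all genes.

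Psmg2 gave 0.20 in MTCH2-/- cells (SE 0.10, adjusted p = 0.112) and rose by 1 in MTCH2 F/F cells (SE 0.10, adjusted p = 1.69e-07). For Psmb10 the values were 0.70 in MTCH2-/- cells (adjusted p = 0.00589) and 1.77 in MTCH2 F/F cells, and for Psma8 0.53 (adjusted p = 0.000423) and 1.21, all past the threshold, although the MTCH2-/- call of Psmb10 was lost without the 4 libraries numbered 1 (0.47, adjusted p = 0.0881). Psmb9 gave 0.20 (adjusted p = 0.453) in MTCH2-/- cells, and Psma7, Psmc3ip and Psmg3 gave -0.09, 0.04 and -0.02 there, none of which passed. The difference for Psmg3 was lost without the second (-0.51, adjusted p = 0.0515) or the third (-0.47, adjusted p = 0.0545) MTCH2 F/F ESC library or the second MTCH2 F/F EpiLC library (-0.50, adjusted p = 0.0534). That for Psma4 was lost without the third MTCH2 F/F ESC library (-0.29, adjusted p = 0.0688) or the first MTCH2 F/F EpiLC library (-0.33, adjusted p = 0.0508). That for Psmc6 was lost without the second (-0.28, adjusted p = 0.0517) or the third (-0.26, adjusted p = 0.0667) MTCH2 F/F ESC library, the third MTCH2-/- ESC library (-0.24, adjusted p = 0.0517) or the second MTCH2 F/F EpiLC library (-0.26, adjusted p = 0.0694).

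**Figure D4:**
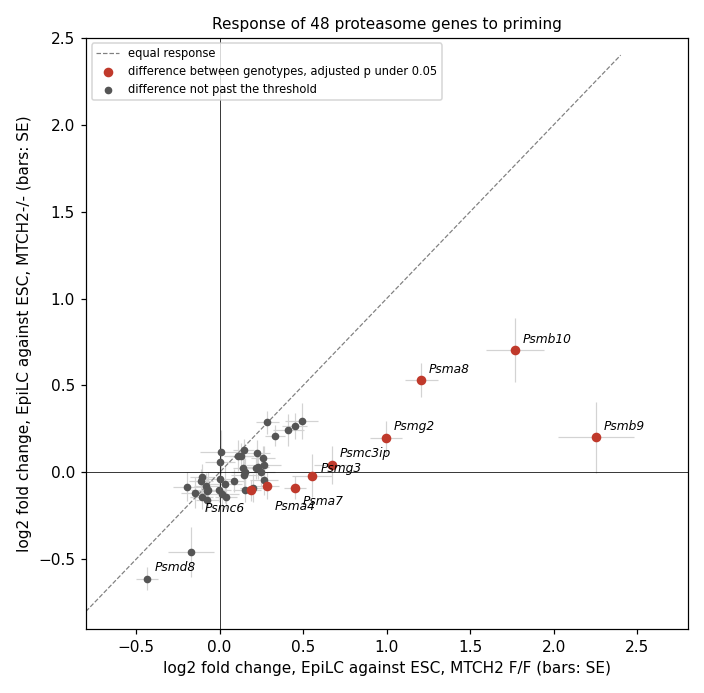
Log2 fold change of EpiLCs against ESCs in MTCH2-/- cells (y axis) and in MTCH2 F/F cells (x axis) for the 48 tested genes, with standard errors; red points are the 9 genes whose response differed between genotypes at an adjusted p under 0.05, and the dashed line is an equal response. The 9 red points lie below the dashed line, with Psmb9 at 0.20 in MTCH2-/- and 2.25 in MTCH2 F/F cells, and Psmd8 lies at -0.61 in MTCH2-/- and -0.44 in MTCH2 F/F cells.

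Genes that work with the proteasome were read from lists of partners, of the circuit around Nfe2l1, of ubiquitin supply and of antigen processing. Of 15 partners, 9 fell and 1 rose in MTCH2-/- EpiLCs, and 5 fell and 4 rose in MTCH2-/- ESCs, with medians of -0.30 and -0.02. For these and the following lists the shares over all genes are those given above, 32.3% that rose and 30.2% that fell in EpiLCs and 23.3% and 20.4% in ESCs, and on priming 20% and 22.2% in MTCH2-/- cells and 31.9% and 32.1% in MTCH2 F/F cells. The lists are short, and nothing particular to them is read from their counts. Pomp, which matures the core, fell in both media (-0.81 and -0.51), with 57.0, 71.6 and 67.5 CPM in MTCH2-/- EpiLCs, 119, 118 and 106 CPM in MTCH2 F/F EpiLCs, and 58.8, 71.3 and 67.4 CPM in MTCH2-/- ESCs, against 95.6, 98.3 and 86.5 CPM in MTCH2 F/F ESCs. So did the cap-bound deubiquitinase gene Usp14 (-0.67 and -0.24) and the shuttle factor gene Ubqln2 (-0.78 and -0.38), while Zfand2a, a stress-inducible cap-binding factor, rose (0.88 and 0.25). Of these ESC calls, that of Zfand2a was lost without the first MTCH2-/- ESC library (0.18, adjusted p = 0.117) or without the second (0.23, adjusted p = 0.0799) or the third (0.18, adjusted p = 0.132) MTCH2 F/F ESC library, and that of Usp14 without the 4 libraries numbered 1 (-0.15, adjusted p = 0.0794). On priming 1 partner rose in MTCH2-/- cells, against 8 that rose and 2 that fell in MTCH2 F/F cells.

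In the circuit around Nfe2l1, that gene itself, whose product activates proteasome genes when proteasome activity is short, gave 0.13 in EpiLCs (adjusted p = 0.19) and rose by 0.29 in ESCs (adjusted p = 0.00952), with 480, 583 and 570 CPM in MTCH2-/- EpiLCs, 494, 480 and 523 CPM in MTCH2 F/F EpiLCs, and 477, 570 and 574 CPM in MTCH2-/- ESCs, against 439, 439 and 451 CPM in MTCH2 F/F ESCs. Its ESC call was lost without the first (0.25, adjusted p = 0.0587) or second (0.26, adjusted p = 0.0585) MTCH2 F/F ESC library. Of the 9 genes of the circuit, 6 rose and 1 fell in MTCH2-/- EpiLCs and 4 rose and 1 fell in MTCH2-/- ESCs. The ERAD factor gene Sel1l (0.93 and 0.59), Ngly1, which strips sugars from the Nfe2l1 product (0.96 and 0.70), and the related factor gene Nfe2l2 (0.42 and 0.33) rose in both, and the protease gene Ddi2 rose in EpiLCs (0.39). The circuit gene that fell was Vcp in both media (-0.45, adjusted p = 0.00034, in EpiLCs and -0.30, adjusted p = 0.0124, in ESCs). On priming 3 circuit genes rose and 2 fell in MTCH2-/- cells, against 1 that rose and 3 that fell in MTCH2 F/F cells.

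In ubiquitin supply, 3 of 6 genes fell and 1 rose in MTCH2-/- EpiLCs and 2 fell and 1 rose in MTCH2-/- ESCs. Both ubiquitin-activating enzymes were among those that fell, Uba6 (-0.58 in EpiLCs and -0.34 in ESCs) and Uba1 (-0.31 and -0.39). On priming 1 rose in MTCH2-/- cells, against 1 that rose and 2 that fell in MTCH2 F/F cells. Of 11 antigen processing genes, 5 rose and 2 fell in MTCH2-/- EpiLCs, and 7 rose and 1 fell in MTCH2-/- ESCs. Nlrc5, the transactivator of MHC class I genes, had 4.14, 1.99 and 2.99 CPM in MTCH2-/- EpiLCs and 1.15, 1.02 and 0.880 CPM in MTCH2 F/F EpiLCs. Among ESCs there were 2.11, 1.16 and 2.04 CPM in MTCH2-/- ESCs, against 0.0992, 0 and 0.0991 CPM in MTCH2 F/F ESCs. It rose in both media (1.58, adjusted p = 0.000518, in EpiLCs and adjusted p = 8.54e-06 in ESCs), and no ESC fold is given because the floxed ESC libraries held 2, 0 and 2 counts. The class I gene H2-K1 fell in MTCH2-/- EpiLCs (-0.76, adjusted p = 2.33e-06) and rose in MTCH2-/- ESCs (0.72, adjusted p = 3.37e-05), and Tap2 rose in ESCs (2.04, adjusted p = 0.000129). On priming 4 of the 11 rose and 2 fell in MTCH2-/- cells, against 6 that rose and 3 that fell in MTCH2 F/F cells.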

How the data were processed

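Polyadenylated RNA of 12 cultures (TruSeq RNA v2, which does not mark the strand) was sequenced. TopHat 2.0.10 (genome GRCm38) and HTSeq 0.6.1p1 (Ensembl genes) were used by the authors for alignment and counting, and they deposited counts together with a signal column per library, the counts divided by DESeq2 1.6.3 size factors. The deposited log2 fold changes and p-values of the authors' own comparisons were not used. Counts were tested in R 4.3.3 with edgeR 4.0.16 (filterByExpr, TMM scaling, robust quasi-likelihood test, all 4 groups in 1 fit, no replicate term) in 5 contrasts, with Benjamini-Hochberg adjustment over 17369 genes and a threshold of 0.05. Each standard error was taken as the size of the log2 change over the root of its F statistic, and fold changes are on the log2 scale. The methods call the cultures biological samples, but no label says how they were separated, so p-values measure the spread between these libraries. No library duplicated another. Same-numbered libraries deviated together (r 0.107 to 0.471, every pair over 0.1, and at most 0.0067 between other numbers), so that the numbers pair the libraries, and a fit with the replicate block was run beside the main one.

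The members and lists were chosen with earlier results of these data known. Values in every library are given for the core genes, immunoproteasome genes and activators named by a fixed rule. That rule also named up to 4 genes of each associated list, most of them given by fold change alone. Nfe2l1 and Vcp were named outside it. Psmd1 and Psmc3 were added after their values were seen. Alternatives were relative log expression (RLE) scaling, library totals, other filters on low counts, DESeq2 1.42.0, the replicate block and leaving out each library. The scripts were tested on simulated data. Positions and overlaps come from GENCODE vM21 (GRCm38; the authors counted on another annotation) and promoters from RefSeq (GRCm38.p6), where 42 of the 50 genes matched. The totals of 17453328 to 24068523 counts per library limit genes under 1 CPM most.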

Additional observations from a re-analysis of the deposited data

Results flagged for a closer look

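The response to priming differed between MTCH2-/- and MTCH2 F/F cells by edgeR's test of the difference itself (response in MTCH2-/- minus response in MTCH2 F/F cells, log2 scale, Benjamini-Hochberg adjusted p over all genes) for 18 named genes. Over all genes 17.2% had a lower and 17.8% a higher response in MTCH2-/- cells. The proteasome genes with a lower response, 18.8% of those tested, were near that share. Among proteasome genes the difference was -2.05 for Psmb9 (adjusted p = 0.000101), -1.07 for Psmb10 (0.00402), -0.80 for Psmg2 (0.000322), -0.68 for Psma8 (0.00138), -0.63 for Psmc3ip (0.00451), -0.57 for Psmg3 (0.0173), -0.54 for Psma7 (0.000355), -0.36 for Psma4 (0.0163) and -0.29 for Psmc6 (0.0168). Among partners it was -0.43 for Usp14 (0.00154), -0.40 for Ubqln2 (0.00293) and 0.63 for Zfand2a (0.000697). In the circuit around Nfe2l1 it was 0.48 for Ddi2 (0.000968) and 0.35 for Sel1l (0.0098), and Sel1l lost its call without the 4 libraries numbered 1 (0.31, adjusted p = 0.0516). In antigen processing it was -2.01 for Tap1 (1.84e-05), -1.46 for Tap2 (0.0138), -1.48 for H2-K1 (7.25e-07) and -3.04 for Nlrc5 (0.00368), a fitted value that depends on the prior count and is no bound, since the MTCH2 F/F ESC libraries held 2, 0 and 2 counts.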

How the results depend on the processing

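None of the 108 calls of proteasome genes in the 5 contrasts changed direction under the alternatives that were run, while values near 0 that passed no test could change sign. Of these calls, 107 were kept with DESeq2, 107 with RLE scaling, 97 with library totals, 107 with a mean of at least 1 CPM, 106 with no filter, 108 with the replicate block and 92 without the 4 libraries numbered 1, the last chosen after seeing the data. The replicate block added 17 values to those past the threshold, took the genes whose response was lower in MTCH2-/- cells to 15 and those that fell on priming of MTCH2-/- cells to 4, and changed no other count by over 1.5 times. The shares over all genes in that fit are not given here. The genes that fell on priming of MTCH2 F/F cells numbered 1 with RLE scaling, library totals, no filter, DESeq2 or a mean of at least 20 CPM. With 1 library left out, 34 to 41 genes were lower in MTCH2-/- EpiLCs, 19 to 28 in MTCH2-/- ESCs, 16 to 23 rose and 1 to 2 fell on priming of MTCH2 F/F cells, 4 to 7 rose and 1 to 5 fell on priming of MTCH2-/- cells, and 6 to 13 had a lower response in MTCH2-/- cells. Shares over all genes are likewise not given for those fits, so these ranges are not read against all genes. Among the 8233 genes whose mean reached 20 CPM, a filter chosen after seeing the data, MTCH2-/- ESCs had 2262 genes higher and 1978 lower, MTCH2-/- EpiLCs 2991 and 2868, 3125 and 2835 on priming of MTCH2 F/F cells, 2082 and 2106 on priming of MTCH2-/- cells (1 proteasome gene lower), and 1786 and 1798 in the difference of responses; fewer genes were tested there. Depth limits Psmb8 and Psmb11, which were not tested.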
